A study of Mus musculus and Rattus norvegicus with 18 samples.

Results

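Tubulin isotypes are the separate genes that encode the α- and β-tubulin subunits of microtubules, and 10 of them were followed here: the β-tubulin genes Tubb2a, Tubb2b, Tubb3, Tubb4b, Tubb5 and Tubb6 and the α-tubulin genes Tuba1a, Tuba1b, Tuba1c and Tuba4a. They were taken by gene symbol from 3 count tables, which list 55487 genes for mouse heart RNA, 17866 genes for mouse heart ribosome footprints and 32883 genes for RNA of the rat cell line H9C2. All 10 were found in each table, and all 10 passed the filter on low counts in each. The set was drawn up knowing that Tubb3 and Tubb2a were higher in footprints of the mutant hearts. Footprint values are therefore given as a description, with no test.

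The series asks what changes when Mettl1 is lost. Mettl1 encodes the enzyme that places 7-methylguanosine on a subset of tRNAs. The heart groups were M1cKO mice, with a conditional knockout of Mettl1 (cKO), and Ctrl mice, all C57BL/6 and 4 weeks old, with 2 RNA libraries and 2 footprint libraries per genotype. The cell groups were H9C2 M1-null, a CRISPR-Cas9 edited line with a frameshift in Mettl1, and H9C2 WT cells with normal Mettl1 expression, with 3 RNA samples each. H9C2 is a line from embryonic heart tissue of the rat, labelled Sprague-Dawley. The labels do not give the Cre driver or the deleted exon of the cKO mice, the M1-null cells are described as 1 edited line, and nothing says that replicates came from separate animals or cultures. The p-values below therefore measure only the spread between these samples.

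Microtubules are built from dimers of one α- and one β-tubulin. Isotypes within a class share most of their sequence and differ mainly in the acidic tail at the C-terminus, where modifying enzymes and motor proteins act. Newly made subunits are folded by the chaperonin CCT and by a set of dedicated cofactors, and cells destroy tubulin mRNA on ribosomes when free dimers are plentiful, through recognition of the nascent chain by TTC5. Tubb3 is best known as the neuronal β-tubulin. In heart muscle, microtubules run between and around the myofibrils and are strongly detyrosinated, a modification studied for its part in the stiffness of failing cardiomyocytes.

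Total counts were 15052652 to 16844783 per heart RNA library, 25171650 to 39675627 per footprint library and 90321496 to 94202947 per H9C2 sample. Levels are given as CPM, a gene's count relative to the library total after TMM scaling, which adjusts the totals for differences in composition. Mettl1 had 2.49 and 2.52 CPM in cKO heart RNA, against 4.31 and 3.76 CPM in Ctrl heart RNA, and this difference missed the threshold (log2 fold change -0.69, edgeR adjusted p = 0.0664). Mettl1 footprints were 2.22 and 2.22 CPM in cKO hearts and 6.28 and 6.62 CPM in Ctrl hearts. In H9C2 it had 4.28, 4.72 and 3.75 CPM in M1-null cells, against 16.6, 15.6 and 16.2 CPM in WT cells (log2 fold change -1.93, edgeR adjusted p = 1.11e-05). All 10 cardiomyocyte markers were detected in the hearts. H9C2 cells had the myoblast factor Myod1 at 187 ± 8.54 CPM in M1-null and 114 ± 10.5 CPM in WT (SD, n = 3 each). Myog, of the same lineage, went the other way, with 7.58 ± 0.413 CPM in M1-null and 16.2 ± 0.217 CPM in WT cells. Of 8 myoblast markers tested in H9C2, edgeR called 4 higher and 1 lower in M1-null cells. Among all genes tested in H9C2, it called 13.6% higher and 11.5% lower. Pax7 and Myf5, further genes of that lineage, had 0 counts in all 6 samples. Of the 10 cardiomyocyte markers, Myl2 and Ryr2 were also at 0 there, while Atp2a2 had 417 ± 2.17 CPM in M1-null and 394 ± 25.1 CPM in WT cells. Tnnt2 had 7.80 ± 0.567 CPM in M1-null and 23.2 ± 1.58 CPM in WT cells, and Pln 5.27 ± 0.812 CPM in M1-null and 2.91 ± 0.283 CPM in WT cells. Of 5 cardiomyocyte markers tested in H9C2, edgeR called 1 higher (Pln) and 1 lower (Tnnt2) in M1-null cells. The shares of all genes given above apply here too.

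The mouse genes lie at scattered places, apart from a few close pairs. In GRCm38.p6, Tubb2a is at chr13:34074278-34078008 and Tubb2b at chr13:34127008-34130354. Tuba1b at chr15:98931429-98934390, Tuba1a at chr15:98949847-98953501 and Tuba1c at chr15:99029891-99038105 form a cluster. Tubb3 is at chr8:123411553-123422015, Tubb4b at chr2:25222158-25224702, Tubb5 at chr17:35833920-35838301 and Tuba4a at chr1:75214972-75221261. Tubb4b overlaps the annotated gene Fam166a, Tuba1b overlaps Gm41396, and Tuba4a overlaps Stk16 and A630095N17Rik. The sources used here do not state whether counting used strand, so reads of these overlaps cannot be assigned with certainty.

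The RefSeq promoter table (GRCm38.p6) held 8 of the 10 members, with no entry for Tubb2b or Tubb6. The 250 bases before the start are shown for the members with the highest RNA log2 fold changes that had an entry, because their RNA moved together in the hearts. Capitals mark matches, on either strand, to TATAAA (the core of a TATA box), CCAAT (the motif bound by NF-Y), GGGCGG (GC box) and TGACGTCA (cAMP response element), and no matches overlapped. The windows are chr8:123411303-123411552 on the plus strand for Tubb3, chr13:34078009-34078258 on the minus strand for Tubb2a, chr2:25224703-25224952 on the minus strand for Tubb4b and chr15:99029641-99029890 on the plus strand for Tuba1c.
Tubb3: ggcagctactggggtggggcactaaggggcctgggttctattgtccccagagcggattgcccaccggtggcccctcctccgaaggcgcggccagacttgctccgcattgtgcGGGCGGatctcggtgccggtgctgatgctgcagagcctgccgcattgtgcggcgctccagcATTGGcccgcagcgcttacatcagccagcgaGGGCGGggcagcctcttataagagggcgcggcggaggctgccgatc
Tubb2a: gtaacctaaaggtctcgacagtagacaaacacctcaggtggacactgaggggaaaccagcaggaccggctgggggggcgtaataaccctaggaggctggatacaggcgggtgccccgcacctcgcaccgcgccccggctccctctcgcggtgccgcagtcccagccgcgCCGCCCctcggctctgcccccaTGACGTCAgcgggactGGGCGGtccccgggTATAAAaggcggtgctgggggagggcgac
Tubb4b: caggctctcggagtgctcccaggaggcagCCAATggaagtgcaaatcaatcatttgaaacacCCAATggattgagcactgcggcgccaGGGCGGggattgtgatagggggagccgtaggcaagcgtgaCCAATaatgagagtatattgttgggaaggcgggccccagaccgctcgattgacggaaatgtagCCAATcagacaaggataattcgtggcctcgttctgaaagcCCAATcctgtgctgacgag
Tuba1c: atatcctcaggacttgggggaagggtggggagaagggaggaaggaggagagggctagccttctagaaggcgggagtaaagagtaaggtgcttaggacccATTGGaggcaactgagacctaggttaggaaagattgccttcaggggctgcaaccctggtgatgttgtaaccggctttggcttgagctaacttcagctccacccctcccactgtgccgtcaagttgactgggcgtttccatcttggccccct
The windows shared no one motif among the 6 that were searched, which also included CACGTG (E-box) and GAANNTTC (a heat shock element pair). Tubb2a alone of the 8 members with an entry held TATAAA, starting 29 bases before the gene, and TGACGTCA, starting 59 bases before it. Among all 32851 promoter windows of this length, 12.4% held TATAAA and 1.55% held TGACGTCA. Tubb4b held 5 matches to CCAAT, Tubb3 and Tuba1c 1 each, and 33.8% of all windows held this motif. Tubb3 and Tubb2a each held 2 GC boxes and Tubb4b 1, against 32.7% of all windows with at least 1 match. Members whose windows are not shown held these motifs too. Tubb5 held 2 matches to CCAAT and Tuba1a 1, while Tuba1b and Tuba4a held 2 GC boxes each and Tuba1a 1. CACGTG was in 6.02% and GAANNTTC in 6.69% of all windows, and neither was found in the sequences above. These matches are descriptions of letters in a window. The motifs were chosen after the sequences were read, so the shares of all windows are no measure of how unusual a match is. The window of Tuba4a lies inside the annotated span of its own gene and is not shown.

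In heart RNA, 6 of the 10 isotypes rose in cKO hearts and 1 fell. Tubb3, Tuba1c, Tubb2a, Tubb2b, Tubb4b and Tubb6 rose, Tuba4a fell, and Tubb5, Tuba1a and Tuba1b did not pass the test. The test was edgeR's quasi-likelihood test over 14088 genes at an adjusted p of 0.05, which called 8.16% of all genes higher and 6.26% lower. The median log2 fold change of the isotypes was 0.54, against 0.00 for all genes. Both cKO libraries lay above both Ctrl libraries for 8 isotypes and below them for 1, where 27.8% and 27.2% of all genes did so. No label says which heart a library came from, and since RNA and footprints compare the same genotypes, RNA calls are not independent support for the footprint differences. In bulk tissue, fewer cells of a type and less RNA per cell cannot be told apart.

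Tubb3 had the highest fold change of the set in heart RNA, on low counts. It had 96 and 59 counts in the cKO libraries, against 12 and 23 counts in the Ctrl libraries, or 5.55 and 3.81 CPM in cKO hearts and 0.772 and 1.46 CPM in Ctrl hearts. The groups did not overlap, and the log2 fold change was 2.06 ± 0.32 (SE; edgeR adjusted p = 0.000442). Leaving out 1 library at a time or changing the scaling, filter or tool gave log2 fold changes of 1.68 to 2.59, all called.

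Tubb2a and Tubb2b, which encode closely related β-tubulins, both rose. Tubb2a had 76.2 and 83.1 CPM in cKO hearts, against 32.7 and 34.1 CPM in Ctrl hearts, with a log2 fold change of 1.25 ± 0.08 (SE; edgeR adjusted p = 4.79e-08). Tubb2b had 12.8 and 11.0 CPM in cKO hearts, against 5.66 and 5.98 CPM in Ctrl hearts, with a log2 fold change of 1.03 ± 0.15 (SE; edgeR adjusted p = 0.000267). For both genes every cKO library was above every Ctrl library. As near copies they may exchange reads, depending on how reads with several matches were treated, a step the sources used here do not describe. The ratio of Tubb2b to Tubb2a counts was 0.169 and 0.132 in cKO hearts, against 0.173 and 0.175 in Ctrl hearts.

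Tubb4b, a broadly expressed β-tubulin that is also found in cilia, had 351 and 359 CPM in cKO hearts, against 189 and 218 CPM in Ctrl hearts. It took the greatest share of β-tubulin RNA counts in all 4 libraries, and rose by a log2 fold change of 0.80 ± 0.07 (SE; edgeR adjusted p = 1.19e-06). Tubb6 (chr18:67390731-67402749), a β-tubulin known to increase in regenerating muscle, had 35.2 and 35.5 CPM in cKO hearts, against 28.7 and 29.4 CPM in Ctrl hearts (log2 fold change 0.28, edgeR adjusted p = 0.0368). This call did not hold with DESeq2 (adjusted p = 0.218), with all genes of at least 1 count tested (edgeR adjusted p = 0.0525) or without any 1 of the 4 libraries (edgeR adjusted p 0.0641 to 0.154). Tubb5, the most widely expressed β-tubulin, had 189.9 and 179.7 CPM in cKO hearts, against 153 and 170.4 CPM in Ctrl hearts (log2 fold change 0.19, edgeR adjusted p = 0.0645). It passed under 5 of the 11 other settings, among them leaving out Ctrl library 2 (edgeR adjusted p = 0.0187).

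The α-tubulin genes went separate ways. Tuba1c, a ubiquitous α-tubulin, had 68.3 and 61.7 CPM in cKO hearts, against 23.1 and 25.7 CPM in Ctrl hearts, and its log2 fold change was 1.41 ± 0.09 (SE; edgeR adjusted p = 5.01e-08). Tuba4a, an α-tubulin of heart, muscle and platelets whose encoded protein already lacks the terminal tyrosine, had 318 and 302 CPM in cKO hearts, against 469.6 and 579 CPM in Ctrl hearts. It was the 1 member that fell, with a log2 fold change of -0.76 ± 0.08 (SE; edgeR adjusted p = 1.03e-05), and no cKO library reached a Ctrl library. Of the 10 cardiomyocyte markers, 7 also fell in heart RNA (4 with DESeq2), and the summed level of the list was 51558 to 51814 CPM in cKO hearts and 58693 to 59362 CPM in Ctrl hearts. The part of these markers in the fall of Tuba4a was not tested.

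Tuba1a, the main α-tubulin of developing neurons, had 100.8 and 112.8 CPM in cKO hearts, against 104.8 and 120.9 CPM in Ctrl hearts. The groups overlapped (log2 fold change -0.08, edgeR adjusted p = 0.561), and without Ctrl library 2 the sign turned (log2 fold change 0.02). Tuba1b, a ubiquitous α-tubulin, had 125 and 126 CPM in cKO hearts, against 99.9 and 120.4 CPM in Ctrl hearts (log2 fold change 0.19, edgeR adjusted p = 0.130). It passed without Ctrl library 2 (log2 fold change 0.33, edgeR adjusted p = 0.00444), with scaling by library totals (adjusted p = 0.0277) and under a replicate block (adjusted p = 0.0225).

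**Figure D1:**
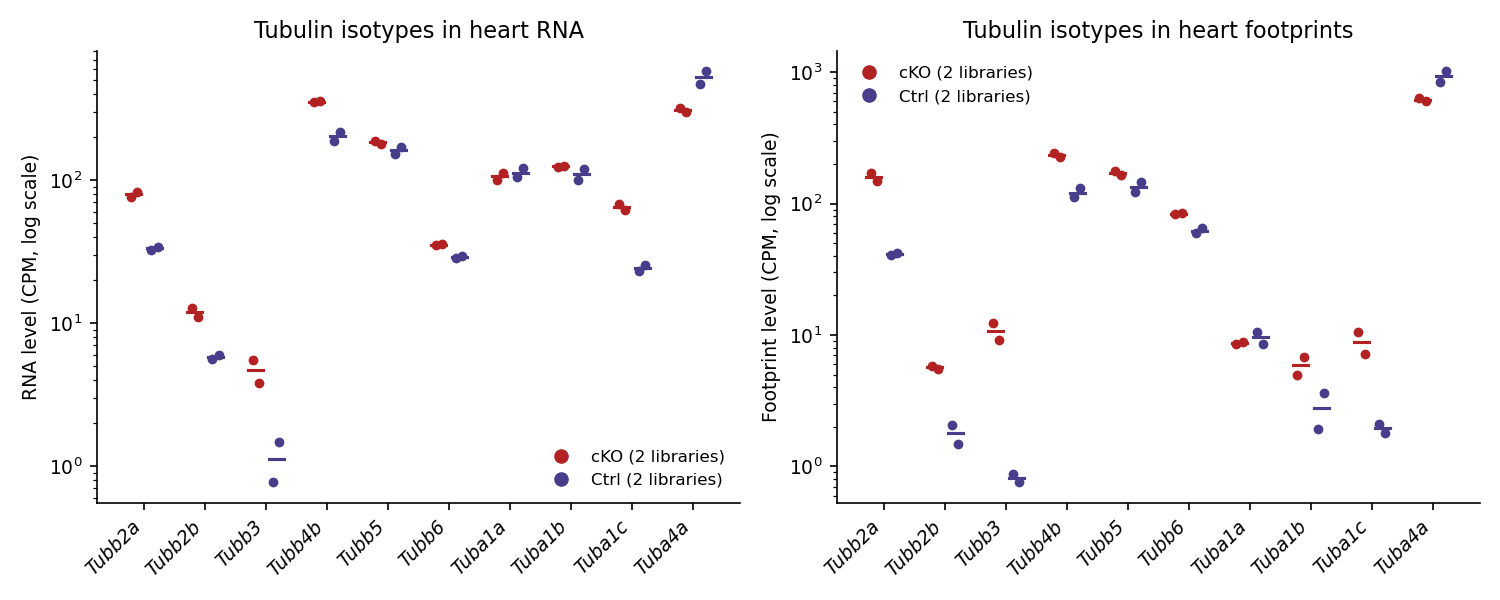
Level of each tubulin isotype in CPM on a log axis, in heart RNA (left) and heart footprints (right), with 1 point per library and a bar at the mean of each genotype (cKO in red, left of Ctrl in dark blue). Tubb3 footprints sit at 12.4 and 9.21 CPM in cKO hearts, above 0.873 and 0.759 CPM in Ctrl hearts, while Tuba4a is the 1 gene with both cKO points below both Ctrl points in either panel.

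Footprints are ribosome-protected fragments, so a gene's count reflects the ribosomes on all copies of its message, and with them the amount of that message. In footprints 8 isotypes had both cKO libraries above both Ctrl libraries, Tuba1a overlapped, and Tuba4a had both below. Among the 13514 genes kept, 28.7% separated upward and 27.1% downward. The isotypes were chosen on this contrast, so nothing is read from their count. Their median log2 fold change was 1.003, against 0.00 for all genes, and was 0.77 without Ctrl footprint library 1 and 1.25 without Ctrl footprint library 2.

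Tubb3 had 498 and 319 footprints in the cKO libraries, against 21 and 25 in the Ctrl libraries. That is 12.4 and 9.21 CPM in cKO hearts, against 0.873 and 0.759 CPM in Ctrl hearts, and a log2 fold change of 3.74. Tubb2a had 169.7 and 147.6 CPM in cKO hearts, against 40.4 and 42.3 CPM in Ctrl hearts, a log2 fold change of 1.94. The cKO libraries were far above the Ctrl libraries for both genes, and in both genes cKO library 1 was the higher of the cKO pair.

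The other β isotypes followed in the order they had in RNA, with Tubb6 and Tubb5 close together in both assays. Tubb2b had 5.79 and 5.54 CPM in cKO hearts and 2.08 and 1.49 CPM in Ctrl hearts, a log2 fold change of 1.69. Tubb4b had 242 and 228 CPM in cKO hearts and 112 and 130.3 CPM in Ctrl hearts, a log2 fold change of 0.95. Log2 fold changes were 0.43 for Tubb6 and 0.35 for Tubb5. Among the α genes, Tuba4a footprints were 637 and 599 CPM in cKO hearts and 839 and 1015 CPM in Ctrl hearts, a log2 fold change of -0.59.

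The cluster of Tuba1 genes had few footprints for its RNA. Tuba1c had 10.6 and 7.13 CPM in cKO hearts and 2.12 and 1.79 CPM in Ctrl hearts, a log2 fold change of 2.19. Tuba1b had 4.97 and 6.78 CPM in cKO hearts and 1.91 and 3.61 CPM in Ctrl hearts (log2 fold change 1.05), and Tuba1a had 8.59 and 8.78 CPM in cKO hearts and 10.6 and 8.59 CPM in Ctrl hearts (log2 fold change -0.14). The ratio of mean footprint CPM to mean RNA CPM was 0.137 in cKO and 0.0802 in Ctrl hearts for Tuba1c, 0.0468 in cKO and 0.0251 in Ctrl hearts for Tuba1b, and 0.0813 in cKO and 0.0850 in Ctrl hearts for Tuba1a. For Tuba4a it was 1.99 in cKO and 1.77 in Ctrl hearts. The coding sequences of Tuba1a, Tuba1b and Tuba1c are close copies of each other, and a footprint is short, so their footprint levels are uncertain. Leaving these 3 genes out gave a median log2 fold change of 0.95 for the other 7.

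Frames of the 10 genes hold 444 to 451 codons, so footprints per kilobase of frame can be set side by side between genes. In cKO hearts the order of the highest was Tuba4a (474 and 446 footprint CPM per kilobase), Tubb4b (181 and 170.5), Tubb5 (134 and 123), Tubb2a (127 and 111) and Tubb6 (61.9 and 63.4). Tubb5 and Tubb2a overlapped across libraries there, with Tubb5 the higher in each. In Ctrl hearts the order was Tuba4a (624 and 755 footprint CPM per kilobase), Tubb5 (91.8 and 109.8), Tubb4b (84.0 and 97.6), Tubb6 (44.2 and 48.6) and Tubb2a (30.2 and 31.7), with Tubb5 and Tubb4b overlapping across libraries and Tubb5 the higher in each. Tubb2a thus stood above Tubb6 in cKO hearts and below it in Ctrl hearts. Tubb3 was the lowest of the 10 in Ctrl hearts, at 0.647 and 0.562 footprint CPM per kilobase, and was sixth in cKO hearts at 9.21 and 6.82, where it overlapped Tuba1c at 7.88 and 5.29 across libraries and was the higher in each.

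**Figure D2:**
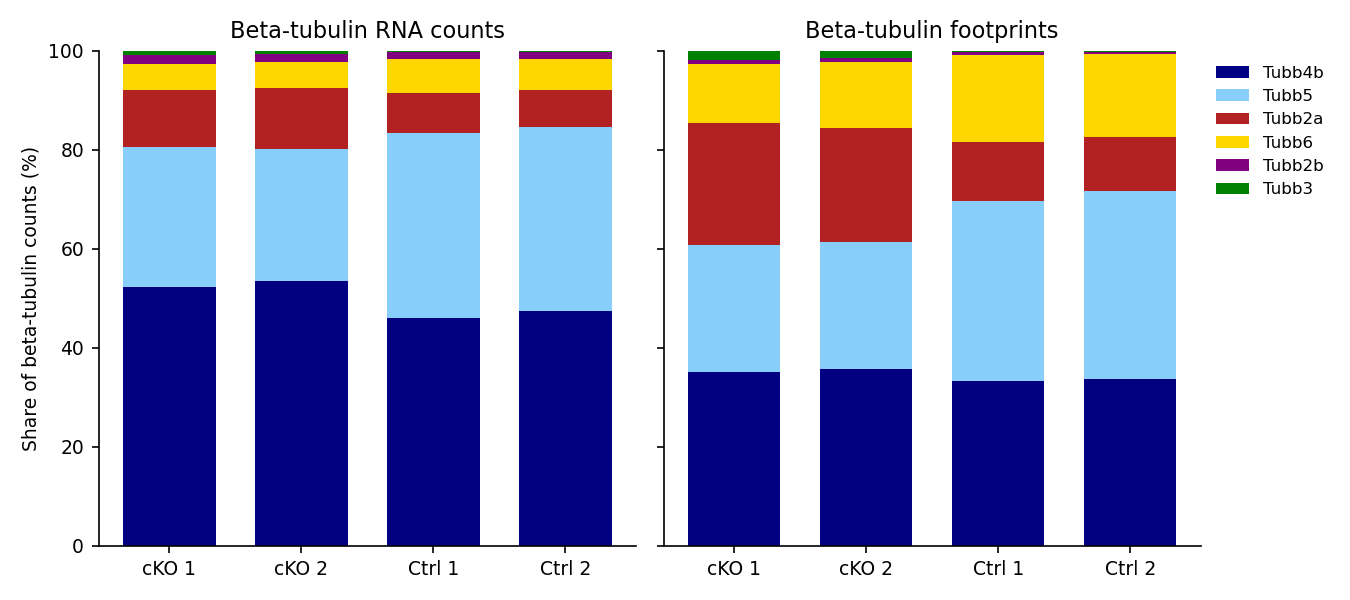
Share of each β-tubulin gene, in percent of the summed counts of the 6 β genes, in heart RNA (left) and heart footprints (right), with 1 stacked bar per library and cKO bars left of Ctrl bars. Tubb2a (red) takes 24.6 and 23.1% of β footprints in cKO hearts, against 11.98 and 10.9% in Ctrl hearts, and Tubb5 (light blue) is correspondingly narrower in cKO hearts.

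The make-up of the β-tubulin pool differed between genotypes. Tubb2a made up 23.8 ± 1.02% of β footprints in cKO hearts and 11.5 ± 0.734% in Ctrl hearts (SD, n = 2 each). Tubb5 made up 25.7 ± 0.0939% in cKO hearts and 37.1 ± 1.13% in Ctrl hearts, while Tubb4b made up 35.3 ± 0.437% in cKO hearts and 33.5 ± 0.326% in Ctrl hearts. Tubb3 stayed a small part, at 1.62 ± 0.253% in cKO hearts and 0.228 ± 0.0443% in Ctrl hearts. In RNA the shift had the same direction for Tubb2a, at 11.9 ± 0.708% of β counts in cKO hearts and 7.70 ± 0.381% in Ctrl hearts, and for Tubb5, at 27.5 ± 1.13% in cKO hearts and 37.2 ± 0.192% in Ctrl hearts. Since Tubb2a and Tubb3 were known to be higher in cKO footprints when the set was drawn up, their larger footprint shares there are only a description. The same holds for the smaller shares of other genes. Shares of RNA counts are not corrected for transcript length, and none of these shares was tested.

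The summed β and α levels moved apart. The 6 β genes together had 670.2 and 672 CPM in cKO heart RNA, against 410.4 and 459 CPM in Ctrl heart RNA, and 691 and 639 CPM in cKO footprints, against 337 and 386 CPM in Ctrl footprints. The 4 α genes together had 612 and 603 CPM in cKO heart RNA, against 698 and 846 CPM in Ctrl heart RNA, and 661 and 622 CPM in cKO footprints, against 854 and 1029 CPM in Ctrl footprints. Every cKO library was above every Ctrl library for β and below every Ctrl library for α. Of the footprints of these 4 genes, Tuba4a alone held 96.3% in cKO hearts and 98.5% in Ctrl hearts. Of their RNA counts it held 51.1% in cKO hearts and 67.9% in Ctrl hearts. The α sum therefore follows Tuba4a, and the low footprint counts of the Tuba1 copies bear on it. A further α gene outside the set, Tuba8, had 408 ± 53.7 footprint CPM in cKO hearts and 394 ± 42.7 in Ctrl hearts (SD, n = 2 each). Tuba8 is left out of the α sum and of these shares. The share of Tuba4a among all α footprints was therefore well below the values above.

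Footprint and RNA changes differed by unequal amounts among the isotypes. The difference of the log2 fold changes, footprint minus RNA, was 1.67 for Tubb3, 0.87 for Tuba1b, 0.78 for Tuba1c, 0.69 for Tubb2a and 0.65 for Tubb2b. It was between -0.06 and 0.17 for the other 5 isotypes. Over all 12662 genes measured in both assays the median was 0.00, with 5% of genes below -0.50 and 5% above 0.54. The Tubb3 difference was 2.15 without Ctrl replicate 1 and 1.03 without Ctrl replicate 2 in both assays, the RNA counts of these Ctrl libraries being 12 and 23. Leaving out 1 genotype's replicate in both assays gave 0.64 to 1.29 for Tuba1b, 0.53 to 0.97 for Tuba1c, 0.51 to 0.85 for Tubb2a and 0.37 to 0.93 for Tubb2b. Tuba1c and Tubb2a without cKO replicate 1, and Tubb2b without Ctrl replicate 2, thus lay inside the range of the middle 90% of genes. These differences rest on the contrast that chose the set and carry no test.

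**Figure D3:**
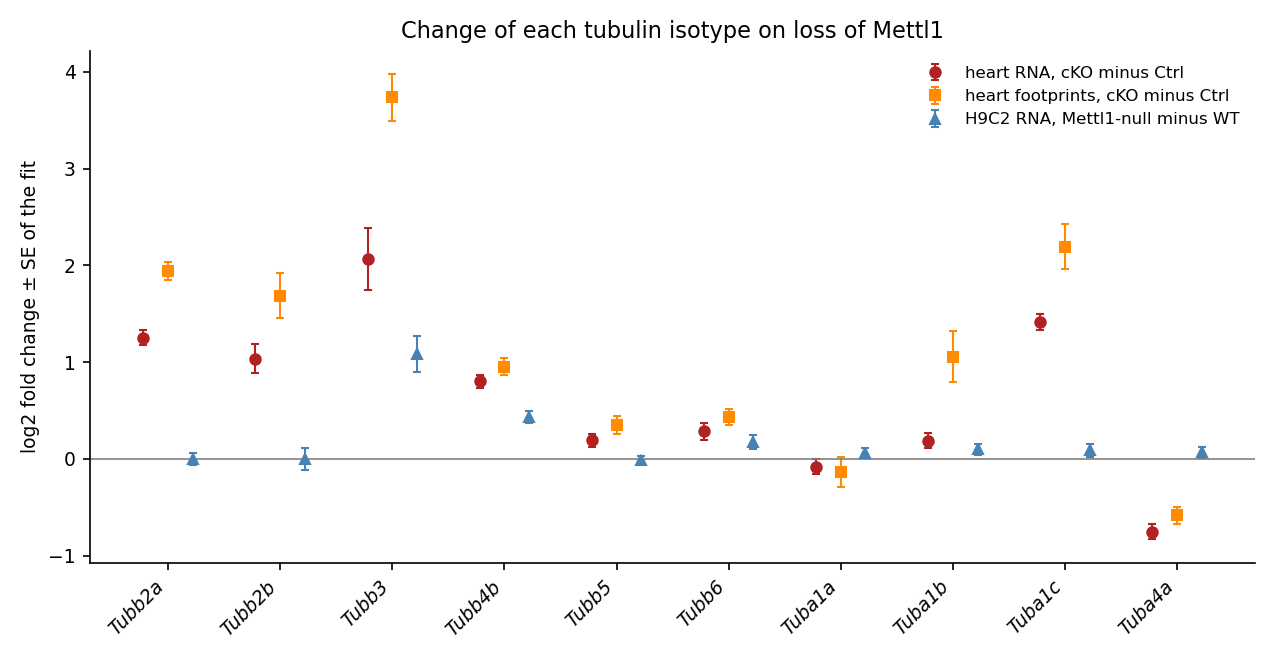
Log2 fold change of each isotype, with the standard error of the fit, in heart RNA (red circles) and heart footprints (orange squares), both cKO minus Ctrl, and in H9C2 RNA (blue triangles), M1-null minus WT. Tubb3 is high in all 3, at 2.06, 3.74 and 1.08, whereas Tubb2a, Tubb2b and Tuba1c are high in the heart and lie at -0.00, 0.00 and 0.09 in H9C2.

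In H9C2 cells, 2 of the 10 isotypes rose in M1-null cells. edgeR called 13.6% of the 14801 genes tested higher and 11.5% lower. Tubb3 had 8.76, 7.67 and 8.54 CPM in M1-null cells, against 3.79, 5.07 and 2.94 CPM in WT cells. The groups did not overlap, and its log2 fold change was 1.08 ± 0.19 (SE; edgeR adjusted p = 0.00344). Tubb4b had 573, 586 and 579 CPM in M1-null cells, against 437, 461 and 392 CPM in WT cells, also without overlap. Its log2 fold change was 0.43 ± 0.06 (SE; edgeR adjusted p = 0.00143). Both calls held under all 13 other settings. The count of isotypes that fell was 0 in edgeR, DESeq2 and limma-voom, also at an unadjusted p under 0.05.

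The other 8 isotypes did not pass in H9C2, and their log2 fold changes lay between -0.01 and 0.17. Tubb6, the highest of these, had 501, 483 and 499 CPM in M1-null cells, against 434, 482 and 400.5 CPM in WT cells. Its groups did not overlap, which made 3 isotypes separating upward, where 22.8% of all genes did, and none separated downward, where 19.8% did (log2 fold change 0.17, edgeR adjusted p = 0.0977). Tubb2a had 71.6, 69.8 and 77.4 CPM in M1-null cells, against 75.3, 75.7 and 68.0 CPM in WT cells, and these overlapped (edgeR adjusted p = 0.992). Tuba1c had 853, 809 and 854 CPM in M1-null cells, against 736, 867 and 764 CPM in WT cells (edgeR adjusted p = 0.373). WT sample 2 was the highest WT sample for 9 isotypes. Without it, Tuba1b (log2 fold change 0.16, edgeR adjusted p = 0.00515), Tuba1c (0.16, adjusted p = 0.0222) and Tubb6 (0.25, adjusted p = 0.00528) also passed, which made 5 in all.

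The isotypes that dominated in H9C2 differed from those of the heart. Tuba1b held 55.6% of the RNA counts of the 4 α genes in M1-null and 55.0% in WT cells. Tuba4a held 4.41% in M1-null and 4.47% in WT cells. Tubb5 held 66.7 ± 0.0825% of β RNA counts in M1-null and 71.2 ± 1.08% in WT cells, and Tubb4b 16.6 ± 0.308% in M1-null and 13.0 ± 0.507% in WT cells (SD, n = 3 each). Tubb3 was again a minor gene, with 0.239 ± 0.0149% in M1-null and 0.118 ± 0.0263% in WT cells. As in the heart, Tubb5 had a lower share and Tubb4b and Tubb3 a higher share of β RNA counts where Mettl1 was lost. Tubb2a, Tubb2b and Tubb6 went opposite ways in heart and H9C2. Tubb2a had 2.09% in M1-null and 2.21% in WT cells, and Tubb2b 0.154% in M1-null and 0.163% in WT cells, though both shares were higher in cKO hearts. Tubb6 had 14.2% in M1-null and 13.3% in WT cells, against 5.27% in cKO and 6.70% in Ctrl heart RNA. These shares were not tested.

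**Figure D4:**
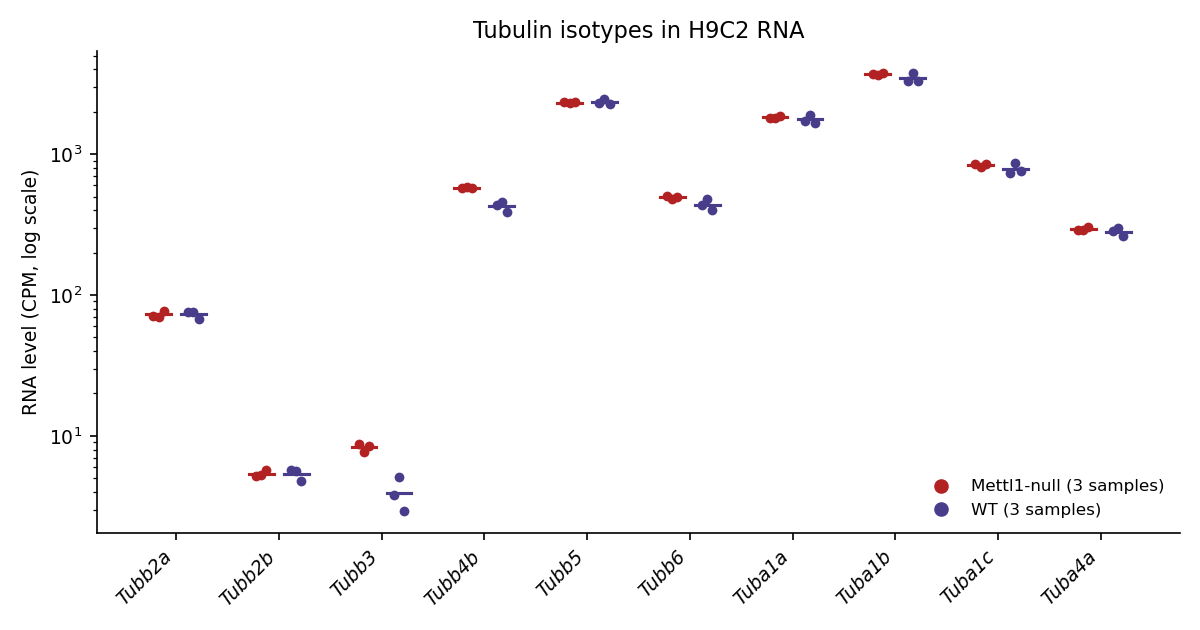
Level of each tubulin isotype in H9C2 RNA, in CPM on a log axis, with 1 point per sample and a bar at the mean of each group (M1-null in red, left of WT in dark blue). Tubb3 sits at 7.67 to 8.76 CPM in M1-null cells, above 2.94 to 5.07 CPM in WT cells, and the points of Tubb2a, Tubb2b, Tubb5 and the 4 α genes overlap.

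Whether the effect on RNA differed between heart and H9C2 was tested for genes matched by symbol, as the interaction of system and genotype in edgeR. This test was added after the data were examined. The difference, heart minus H9C2, passed for 5 of the 10 isotypes, where 19.6% of 10356 genes passed in either direction. It was 1.33 for Tuba1c, 1.26 for Tubb2a and 1.04 for Tubb2b, each higher in the heart, and -0.82 for Tuba4a (edgeR adjusted p 1.54e-05 to 0.00342 for these 4). For Tubb4b it was 0.38 (edgeR adjusted p = 0.0300), and the call was lost without any 1 of 7 libraries (edgeR adjusted p 0.0568 to 0.141). For Tubb3 the difference of 0.99 ± 0.45 (SE) did not pass (edgeR adjusted p = 0.151), but passed without WT sample 3 (edgeR adjusted p = 0.0423). Species, tissue and the kind of mutation all differ between the systems and cannot be told apart.

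Genes that handle tubulin were called in heart RNA at shares near those of all genes. Of 139 listed genes for other tubulins, folding, modification, microtubule binding, nucleation, motors and tubulin mRNA decay, 123 were tested in heart RNA. There 10 rose (8.13%) and 7 fell (5.69%), against 8.16% and 6.26% of all genes, and the median log2 fold change was 0.02. DESeq2 called 5 higher and 5 lower. In H9C2, 115 were tested, 17 rose (14.8%) and 18 fell (15.7%), against 13.6% and 11.5% of all genes, with a median of -0.02.

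Among 21 folding genes in the heart, 3 had higher RNA in cKO mice and 2 had lower RNA. The chaperonin subunit Cct3 had 135 ± 0.263 CPM in cKO hearts and 98.2 ± 0.276 CPM in Ctrl hearts (SD, n = 2 each; log2 fold change 0.46), the prefoldin subunit Pfdn6 rose by 0.51, and the chaperonin subunit Cct2 had a log2 fold change of -0.27. In H9C2, 2 folding genes rose and 7 fell. The 7 were all subunits of the chaperonin CCT, led by Cct7 with 289 ± 9.15 CPM in M1-null cells and 428 ± 13.4 CPM in WT cells (SD, n = 3 each; log2 fold change -0.57), with Cct6a at -0.25 and Cct2 at -0.22.

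Of 20 tested genes for tubulin modification, 2 fell in heart RNA in edgeR, DESeq2 and limma-voom alike, and the count that rose was 0 in each, also at an unadjusted p under 0.05. The 2 were Agtpbp1, which removes glutamates from tubulin tails (67.3 ± 4.26 CPM in cKO hearts, 99.7 ± 0.640 CPM in Ctrl hearts, SD, n = 2 each, log2 fold change -0.57), and Ttll1, which adds them (log2 fold change -0.65). In H9C2, 3 rose and 2 fell, and the 3 with the lowest adjusted p were the ligase gene Ttll7 (0.62), the vasohibin gene Vash2 (-0.23), and the acetyltransferase gene Atat1 (0.35).

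Of 12 tested genes for proteins that bind along the microtubule, Map1a rose in heart RNA, with 27.7 ± 1.11 CPM in cKO hearts and 18.6 ± 2.30 CPM in Ctrl hearts (SD, n = 2 each; log2 fold change 0.58). In H9C2, 5 of 11 rose. They included Mapt, which encodes tau, with 2.29 ± 0.455 CPM in M1-null cells and 0.631 ± 0.115 CPM in WT cells (SD, n = 3 each; log2 fold change 1.86), Map2 (0.98) and Map1a (0.59). Of 22 genes for plus-end and dynamics factors, the end-binding genes Mapre2 (0.32) and Mapre3 (0.26) and the tubulin-sequestering gene Stmn1 (0.48) rose in heart RNA, and 1 of these 3 did so with DESeq2. In H9C2, 3 of 19 rose and 2 fell, with Clip2 at 0.33, Clip1 at -0.27 and Mapre3 at 0.26.

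Of 12 nucleation genes, the pericentrin gene Pcnt fell in heart RNA (log2 fold change -0.28). In H9C2, Tubgcp2 (-0.27), Cdk5rap2 (-0.28) and Akap9 (-0.50) fell. Of 24 motor genes, the kinesin genes Kif1b (0.33) and Klc4 (0.34) rose and Kif1c (-0.22) fell in heart RNA. In H9C2, 4 motor genes rose and 3 fell, with the dynactin gene Dctn1 at -0.46, the kinesin light chain gene Klc3 at 0.95 and Kifap3 at -0.24. Of 5 genes for tubulin mRNA decay, Cnot1, the scaffold of the deadenylase complex, fell in heart RNA (-0.30), while the 5 had a median log2 fold change of -0.03 in H9C2. Among other tubulins, Tuba3b had 18 and 11 counts in cKO heart RNA, against 3 and 2 counts in Ctrl heart RNA. Tuba3b passed the filter on low counts only through the cKO libraries, so it could only be called higher. Its call is counted above but is not read as a result. It has close copies and few counts, and with DESeq2 neither it nor Pcnt nor Klc4 passed. Tubg1, the γ-tubulin gene, fell in H9C2 (-0.23).

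Tubb3 is used as a marker of neurons, so neuronal genes are set beside it. Of 12 neuronal markers, 5 were tested in heart RNA, where Uchl1, a ubiquitin hydrolase also known as PGP9.5, rose by 1.01 and the sympathetic enzyme gene Dbh fell (log2 fold change -1.38). The summed level of the list was 35.5 to 39.5 CPM in cKO hearts and 27.2 to 28.4 CPM in Ctrl hearts, of which Uchl1 made up 26.5 ± 0.310 CPM in cKO hearts and 13.2 ± 1.23 CPM in Ctrl hearts (SD, n = 2 each). Th, which encodes the rate-limiting enzyme of catecholamine synthesis, had no counts in any of the 4 libraries. Of 7 tested Schwann cell markers and 10 tested genes of dividing cells, 0 passed in edgeR, DESeq2 or limma-voom in either direction (at an unadjusted p under 0.05 in edgeR, 0 Schwann cell markers and 1 gene of dividing cells, which was lower). The summed level of the Schwann cell list was 18.5 to 18.6 CPM in cKO hearts and 19.2 to 20.4 CPM in Ctrl hearts. In H9C2 the summed neuronal list was 1.64 to 1.78 CPM in M1-null cells and 2.70 to 2.88 CPM in WT cells, of which Syt1 made up 0.377 ± 0.0454 CPM in M1-null cells and 2.04 ± 0.224 CPM in WT cells (SD, n = 3 each). Syt1 fell (log2 fold change -2.43), and the other 3 tested markers had log2 fold changes of 0.48 to 1.18 that did not pass, so the list's median was 0.83, with Th, Snap25, Stmn2 and Elavl4 at 0.

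Erythroid markers varied between heart RNA libraries. Of 7 tested, 3 rose in edgeR, 2 in limma-voom and 0 in DESeq2, and the summed level of the list was 1595 to 2496 CPM in cKO hearts and 1457 to 1592 CPM in Ctrl hearts, so 1 cKO library lay near the Ctrl level. Of 10 endothelial markers, Cldn5 (log2 fold change -0.49) and Pecam1 (-0.21) fell. The part of either list in the isotype changes was not tested.

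The genes whose pattern over the 8 heart libraries was most like that of Tubb3 were Nlrc3, Eda2r and Pvt1. Likeness was the Euclidean distance of log2 CPM after centring each assay on its Ctrl mean, over 12100 genes, and came to 0.97 for Nlrc3, 1.21 for Eda2r and 1.22 for Pvt1. In these genes the log2 fold changes were 1.49 in RNA and 3.88 in footprints for Nlrc3, 2.12 in RNA and 2.97 in footprints for Eda2r, and 1.79 in RNA and 4.62 in footprints for Pvt1. Nearest to Tubb2a were Arhgap9 at 0.26, Gpnmb at 0.35 and Cideb at 0.39. All 8 libraries share the 2 genotypes, so a short distance mostly reflects a similar size of change in each assay.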

How the data were processed

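The authors deposited whole-number counts without normalization: read counts per gene for heart RNA and H9C2, and Ribo-seq footprint counts per reading frame, units read from the values. The submitters' processing notes list, with no version or order, featureCounts, StringTie, STAR, HISAT2, Bowtie, Bowtie2, DESeq2 and cutadapt, and the builds Rnor_6.0 and GRCm38. How they handled multiple matches and strand was not stated. H9C2 columns carry names of annotation files, so those counts may derive from assembled transcripts. The 4 tRNA libraries of the 18 samples were not used.

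Per gene, the frame with the most footprints was kept, which held 98.914% of footprints. Each comparison was fitted over all genes past filterByExpr with edgeR 4.0.16 in R 4.3.3 (TMM factors, quasi-likelihood test, Benjamini-Hochberg adjustment, threshold 0.05), and the fit was tested on simulated data. Alternatives were DESeq2 1.42.0, limma 3.58.1 (voom), other scalings and filters, a replicate block and leaving out each library. Likeness used log2 of CPM plus 0.1. Named genes were the members, up to 3 genes with the lowest adjusted p of each pathway list that passed, the 3 genes nearest to Tubb3 and to Tubb2a, and Mettl1. Cell type markers and further tubulins were added beside results. The members, lists and naming rule were chosen with earlier results of these data known, and the promoter motifs after the sequences were read. Replicates differed by more than counting error (chi-square per degree of freedom 3.28 to 86.7).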

Additional observations from a re-analysis of the deposited data

Results flagged for a closer look

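The RNA effect of Mettl1 loss differed between mouse heart and H9C2 for 5 isotypes, by an interaction test in edgeR that was added after the data were examined. The log2 fold change in heart minus that in H9C2 was 1.33 for Tuba1c, with 1.41 in heart and 0.09 in H9C2. It was 1.26 for Tubb2a, with 1.25 in heart and -0.00 in H9C2. It was 1.04 for Tubb2b, with 1.03 in heart and 0.00 in H9C2. For Tuba4a it was -0.82, with -0.76 in heart and 0.07 in H9C2. For Tubb4b it was 0.38, with 0.80 in heart and 0.43 in H9C2. The first 4 kept their call when each library was left out in turn and when library totals replaced TMM, and Tubb4b lost it without any 1 of 7 of the 10 libraries. Species, tissue, kind of mutation and counting differ between the systems, and their parts cannot be told apart.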

How the results depend on the processing

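Among the isotypes, the heart RNA calls of Tubb3, Tubb2a, Tubb2b, Tubb4b, Tuba1c and Tuba4a held under all 11 alternatives, as did the H9C2 calls of Tubb3 and Tubb4b under all 13. Calls over all heart genes, 1150 higher and 882 lower, were 623 higher and 457 lower with DESeq2 and 1769 higher and 506 lower with library totals. Without 1 replicate they were 634 to 1069 higher and 521 to 933 lower. In H9C2, with 2014 higher and 1706 lower, leaving out 1 replicate gave 1348 to 2345 higher and 1006 to 2110 lower, and 2 to 5 isotypes higher, the 5 without WT replicate 2. The median footprint log2 fold change of the isotypes was 0.77 to 1.25 without 1 replicate. With library totals, the median over all genes shifted by 0.08 in heart RNA, 0.07 in footprints and 0.04 in H9C2.

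These values turned sign under some settings, and none passed a test in the fit reported. In H9C2, Tubb2a gave 0.037 with library totals and -0.056 to 0.029 without 1 replicate. Tubb2b gave -0.0031 with DESeq2, -0.0032 with relative-log-expression factors, -0.0012 with all genes of at least 1 count, and -0.078 to 0.045 without 1 replicate. Tubb5 gave 0.026 with library totals and -0.039 to 0.020 without 1 replicate. Tuba1a in heart RNA gave -0.18 to 0.024 without 1 replicate, and the heart minus H9C2 difference of Tuba1b gave -0.031 to 0.23. Tuba1a in footprints gave -0.29 to 0.015, and its footprint minus RNA difference -0.31 to 0.19. The cause of these changes was not tested.

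Same-numbered libraries did not deviate together: the correlation of deviations was 0.026 in heart RNA and -0.015 in footprints, and 0.00029, 0.12 and -0.16 in H9C2, so the numbers were not taken as pairs. With a replicate block, heart RNA had 1455 genes higher and 1290 lower, 8 isotypes higher (Tubb5 and Tuba1b in addition) and 1 lower. H9C2 had 1748 genes higher and 1399 lower, 2 isotypes higher and 0 lower, and the footprint median was 1.03.

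With 2 libraries per genotype in the heart, and 12 and 23 Ctrl counts for Tubb3, the Tubb3 change has the largest standard error of the set in heart RNA. Reads shared by Tuba1a, Tuba1b and Tuba1c, or by Tubb2a and Tubb2b, could not be assigned from the tables used here.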
